A study of Rattus norvegicus with 8 samples.

Results

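The genes described here are the BCL2 survival genes Bcl2, Bcl2l1, Mcl1, Bcl2a1 and Bcl2l2 and the BAX-type effector genes Bax, Bak1 and Bok. They were found by their gene names on a whole genome rat expression array, with the ending that marks a predicted gene removed from the names. These 8 genes, of 35561 gene names on the array, are read by 15 of its 41012 probes and by 42 spots on each array. RNA came from primary thymocytes, the immature T cells of the thymus, of male Sprague-Dawley rats whose adrenal glands had been removed. The cells spent 6 hours in culture, either with no hormone added (Control, 4 arrays) or in 100 nM dexamethasone (Dex, 4 arrays), a synthetic glucocorticoid. All animals of both groups were thus adrenalectomized, the thymi of 3 rats were pooled for each preparation, and no strain, genotype or time point other than these was used. The labels number 4 arrays in each group, more than the paper's methods mention, and all 8 arrays were analyzed. The paper's methods call the replicates biological, but for fewer arrays than are labelled, and the labels do not say which of them come from separate preparations. The p-values therefore measure the spread between these arrays, which may be technical in part.

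The BCL2 family decides at the outer mitochondrial membrane whether a cell dies by the intrinsic route of apoptosis. The survival proteins Bcl-2, Bcl-x (from Bcl2l1), Mcl-1, A1 (from Bcl2a1) and Bcl-w (from Bcl2l2) hold the effectors Bax and Bak in check, and the effectors, once free, form pores through which cytochrome c leaves. A further branch, the BH3-only proteins such as Bim (from Bcl2l11) and Puma (from Bbc3), binds the survival proteins and so releases the effectors. Thymocytes are among the cells most readily killed by glucocorticoids, and Bcl-x is known as the survival protein on which the double positive thymocyte, the stage that carries both CD4 and CD8, depends most. The comparison of Dex with Control asks how the transcripts of both arms of the family stood after 6 hours of hormone.

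Each probe is a single strand of 60 bases, and most of the genes with several probes have them at different places. The first pair shown here reads the coding sequence of Bcl2l1, and the capitals mark the start codon. The probe at the start codon lies at chr3:143084125-143084184 and the second coding probe at chr3:143083643-143083702, both on the minus strand of rat genome build rn3, the build of the scanner output.
Bcl2l1, start codon: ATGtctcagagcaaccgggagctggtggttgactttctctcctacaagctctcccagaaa
Bcl2l1, second coding probe: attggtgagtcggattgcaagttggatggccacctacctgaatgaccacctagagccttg
The next pair is shown because it holds a coding probe of Bcl2l2, a survival gene whose probes differed widely in Dex, and the probe of an effector. The coding probe of Bcl2l2 lies at chr15:33000170-33000229 on the plus strand, and the scanner output gives no position for the probe of Bax.
Bcl2l2, coding probe: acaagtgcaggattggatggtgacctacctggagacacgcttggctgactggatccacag
Bax: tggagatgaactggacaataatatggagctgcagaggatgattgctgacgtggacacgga
Every one of these 4 probes holds at least 1 reading frame without a stop codon. So do the brightest probe of Bcl2l1 and the second probe of Bcl2l2, described next, so that an open frame alone does not show a coding position. Exon positions were not at hand. The brightest probe of Bcl2l1 is none of the 4 shown. It lies at chr3:143034965-143035024, 48618 bases downstream of the second coding probe, and 31.7% of its bases are G or C, against 51.7% in both coding probes. The array describes it as transcript variant 3 of Bcl2l1 and the other 3 probes of the gene as transcript variant 2, so that position and variant cannot be told apart between it and the others. The second probe of Bcl2l2 lies 3400 bases downstream of the coding one, at chr15:33003630-33003689. Its bases are 25.0% G or C, and it holds the polyadenylation signal AATAAA, which marks the end of a transcript. The accessions of 13 of the 15 probes were found under the same gene symbol in the RefSeq table of rat genes (assembly GRCr8). The other 2 are a probe of the Bcl-2 beta messenger and a probe that the array names Mcl1.

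Control 1, Dex 1 and Dex 2 stood apart from the other arrays, with 24908 to 28665 probes well above background against 33148 to 34472. One slide carried Control 1 with Dex 3, another Control 2, 3 and 4, and the last Dex 1, 2 and 4, so that slide and treatment cannot be told apart for 6 of the 8 arrays. Tsc22d3, a classical glucocorticoid target, rose by 3.59 on the log2 scale (adjusted p = 0.000153 in limma), as did Fkbp5 by 1.73 (adjusted p = 0.00133). Of the markers of double positive thymocytes 12 were on the array, all well above background on every array. Of these 9 were lower and 3 higher in Dex and none passed the test. An unadjusted p under 0.05 in limma was found for 5 of the 12, against 10.4% of gene names. Cd8b was higher among them, and Rag1, Ptcra, Lck and Cd5 were lower. Ptcra at -0.61, Lck at -0.68 and Cd5 at -0.70 had all Dex arrays lower, while 8.90% of gene names had all Dex arrays on one side. The summed signal of the markers, over the 11 without a missing value, was 191869 to 235384 intensity units in Control and 155885 to 203132 in Dex. Markers of macrophages summed to 4470 to 6173 in Control and 4360 to 8801 in Dex over 10 genes, with none called and 3 at an unadjusted p under 0.05. Of these genes 6 were higher and 4 lower in Dex. Mrc1 differed most, by 2.12 (adjusted p = 0.0870), with all Dex arrays higher, and C1qc by 0.97 (adjusted p = 0.327). The lower ones were Cd14 at -0.77 (adjusted p = 0.556), Cd163 at -0.24, Adgre1 at -0.15 and Cd68 at -0.12. Markers of stromal and endothelial cells summed to 2099 to 2584 and 1708 to 2803 over 10 genes, 8 of them higher and 2 lower in Dex. Pecam1 alone was called, higher by 1.36 (adjusted p = 0.0211). The lower ones were Vwf at -0.53, with all Dex arrays lower (adjusted p = 0.302), and Col1a2 at -0.76 (adjusted p = 0.609). Markers of B cells summed to 342 to 460 and 226 to 566 over 4 genes, 2 of them well above background on every array, with no call. Erythroid and neutrophil markers, 2 and 4 genes, had no call either, and their summed ranges overlapped between the groups. None of these markers was at 0, and the part of cell composition in the results below was not tested. In such whole cultures fewer cells of a type and less RNA per cell cannot be told apart.

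One of the 8 genes passed the test. Bcl2l1, by the brightest of its 4 probes, fell to 48.6% of its Control level, while its probe at the start codon read 146% of Control and did not pass, and the other 4 survival genes and the 3 effectors did not pass either. All signals are quantile normalized log2 values, and differences are Dex minus Control. The brightest probe, by the mean over all 8 arrays, stands for a gene, so that Dex values enter the choice of probe. At an adjusted p of 0.05 in limma, 1 of 8 genes was called, against 0.751% of all gene names, and it was lower in Dex, against 0.228% of gene names called lower. Counted by probe, 1 of 15 was called, against 0.778% of all probes. The same gene alone passed at an unadjusted p of 0.05, where 10.4% of gene names passed. It also alone passed the signal to noise statistic, which the study's methods name and which was computed here over all assignments of the arrays and pooled over probes, with calls for 6.65% of gene names. By the brightest probes it was the only one of the 8 whose Dex arrays all lay on one side of all Control arrays, which held for 8.90% of gene names. A count of 1 in 8 is therefore close to the background by the last 3 measures. The downstream probe of Bcl2l2 also had all Dex arrays lower. In Control it was brighter than the coding probe that stands for the gene, at 6.77 against 6.55.

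**Figure D1:**
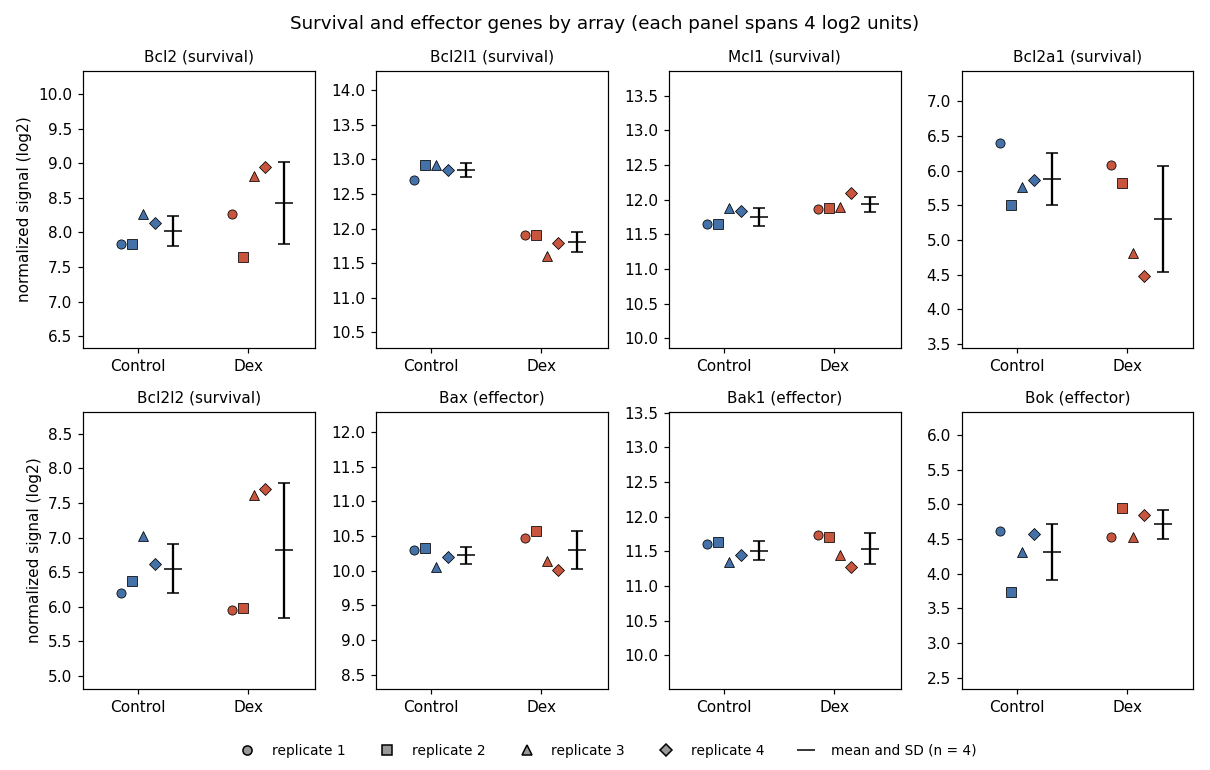
Quantile normalized log2 signal of the brightest probe of each of the 5 survival and 3 effector genes on the 4 Control arrays (blue) and the 4 Dex arrays (red), with symbols for the replicate numbers and the mean and SD of each group beside the points. The groups are apart for Bcl2l1, at 12.84 against 11.80, and overlap in the other 7 panels.

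Bcl2l1 encodes Bcl-x. Its brightest probe read 12.70, 12.92, 12.92 and 12.84 on Control arrays 1 to 4 and 11.91, 11.91, 11.60 and 11.79 on Dex arrays 1 to 4. Every Dex array lay below every Control array, and the spread within the groups was small beside the gap. Control averaged 12.84 ± 0.11 (SD, n = 4) and Dex 11.80 ± 0.14 (SD, n = 4). The log2 fold change was therefore -1.04 (standard error 0.15, 95% interval -1.38 to -0.70, limma adjusted p = 0.0232). With the replicate number as a block the same change had an adjusted p of 0.148, and without any 1 array it had one between 0.0555 and 0.112, so that the call was lost in each of these fits while the size stayed between -1.09 and -0.97. The call was also lost under scaling to the 75th percentile (-1.02, adjusted p = 0.303) and with slide as a fixed block (-1.09, adjusted p = 0.771). On the slide that held Control 1 and Dex 3 the difference was -1.09. Between the arrays of the same replicate number it was -0.78, -1.01, -1.32 and -1.05 for replicates 1 to 4, so that no pair went the other way.

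The other probes of Bcl2l1 did not all follow, and the mean over its 4 probes differed by -0.46 (limma adjusted p = 0.556). The second coding probe read 8.81, 9.04, 8.96 and 8.88 in Control and 8.60, 8.71, 7.75 and 8.25 in Dex. All Dex arrays were again the lower ones, with a difference of -0.59 (standard error 0.23, limma adjusted p = 0.400) that did not pass. The probe at the start codon went the opposite way, with 7.83, 7.86, 7.20 and 7.51 in Control and 8.31, 8.60, 7.43 and 8.22 in Dex. Here 3 of the 4 Dex arrays exceeded all Control arrays and Dex 3 lay among them, with a difference of 0.54 (standard error 0.28, limma adjusted p = 0.573). On the slide shared by Control 1 and Dex 3 this probe was lower in Dex, at -0.40, while it was higher in Dex between all 4 pairs of the same replicate number, by 0.49, 0.74, 0.23 and 0.71. A dim probe, printed in 10 spots and located 857 bases downstream of the second coding probe, averaged 4.09 ± 0.38 (SD, n = 4) in Control, and 3.32 ± 0.45 in Dex. It was well above background on all 4 Control arrays and on 2 Dex arrays, and its difference of -0.76 did not pass (limma adjusted p = 0.377).

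Differences between the probes of a gene were then tested directly, as the log2 difference of both probes on each array, in a comparison chosen after the values were seen. The exact two-sided permutation test over the arrays cannot give less than p = 0.0286 with 4 against 4. Of the 11 pairs of probes of the same gene, 4 reached this value, with an adjusted p of 0.0786 over the 11 pairs, which misses 0.05. This test takes no account of any pairing by replicate number, which is not settled, and an exchange within 4 such pairs could not give less than p = 0.125 in an exact test. All 4 belonged to Bcl2l1. Relative to the probe at the start codon, the distal probe changed by -1.58 and the second coding probe by -1.14. The distal probe changed by -0.45 relative to the second coding probe. The last of the 4 pairs is that of the start codon probe with the dim one, whose size is not given since the dim probe was not well above background on 2 Dex arrays. No pair of probes of Bcl2, Mcl1 or Bcl2l2 reached an exact p under 0.114.

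**Figure D2:**
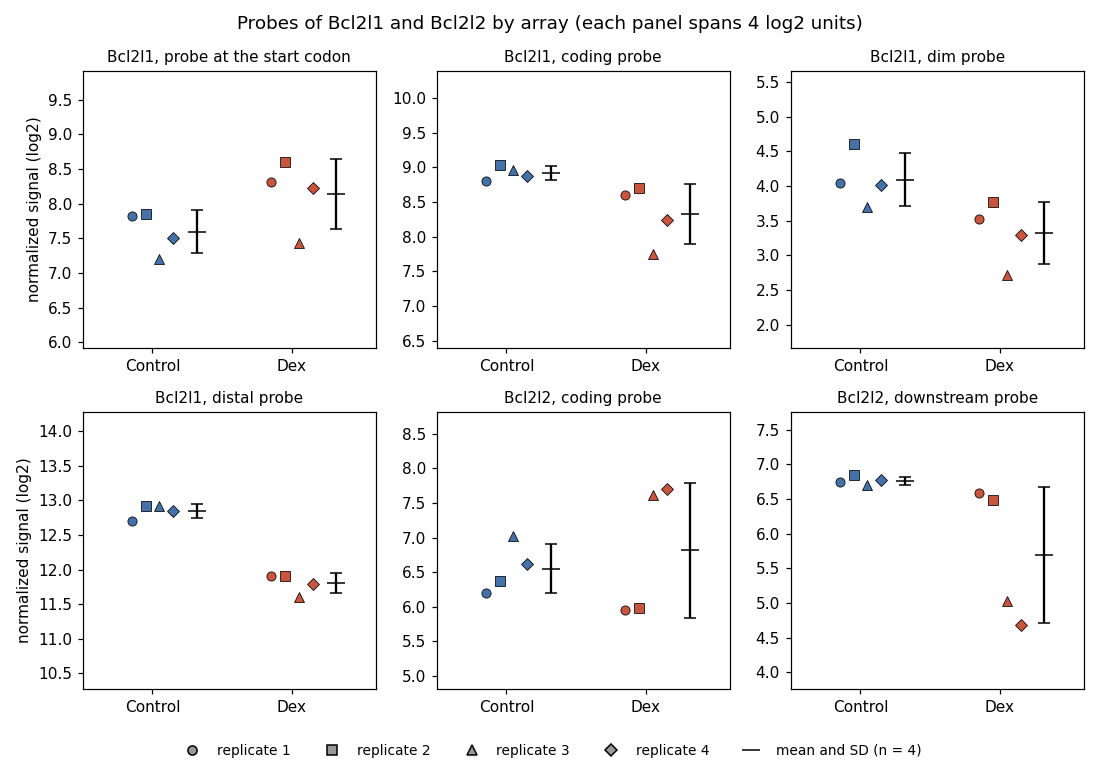
Quantile normalized log2 signal of the 4 probes of Bcl2l1 and the 2 probes of Bcl2l2 on each Control array (blue) and Dex array (red), with the mean and SD of each group. The start codon probe of Bcl2l1 lies higher in Dex on 3 of 4 arrays while the other Bcl2l1 probes lie lower, and the 2 probes of Bcl2l2 part in Dex 3 and Dex 4.

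Bcl2, the founding member of the family, was read by 2 probes. Its brighter probe is described as the Bcl-2 beta messenger and lies at chr13:12903960-12904017, 740 bases from the second one. It read 7.84, 7.83, 8.27 and 8.14 in Control and 8.27, 7.65, 8.82 and 8.95 in Dex. Dex 3 and Dex 4 were the highest and Dex 2 the lowest of all, so the groups overlapped, with a difference of 0.41 (standard error 0.30, limma adjusted p = 0.710). It was 0.23 without Dex 4, 0.66 without Dex 2 and 0.98 on the slide that holds both groups. The probe of the main messenger, in 10 spots at chr13:12904758-12904817, differed by 0.15 (standard error 0.17, limma adjusted p = 0.813), from 5.71 ± 0.25 in Control to 5.87 ± 0.10 in Dex (SD, n = 4 each). Its sequence is shown since the RefSeq table holds this messenger, here called the main one, under Bcl2. The messenger of the brighter probe was not found there, and whether both probes read the same messenger was not tested.
Bcl2, main messenger: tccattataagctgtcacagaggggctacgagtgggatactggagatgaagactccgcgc

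Mcl1 encodes a short-lived survival protein needed by many lymphocytes. Its brightest probe read 11.64, 11.64, 11.88 and 11.83 in Control and 11.86, 11.88, 11.90 and 12.10 in Dex. The Dex arrays tended to be the higher ones but overlapped with Control, and the difference of 0.19 (standard error 0.14, 95% interval -0.15 to 0.52) did not pass (limma adjusted p = 0.723). The second probe of the same messenger, 164 bases away, differed by -0.08 (standard error 0.14, limma adjusted p = 0.890), the opposite sign, from 10.98 ± 0.08 in Control to 10.90 ± 0.14 in Dex (SD, n = 4 each). Among the survival genes these were the narrowest intervals, and both exclude a fall of the size seen at the distal Bcl2l1 probe. A further probe under the name Mcl1 lies on chromosome 3, whereas the other 2 lie on an unplaced part of chromosome 2. The array describes its transcript as a predicted one similar to a hypothetical protein, so that it may not read Mcl1 at all. It was well above background on 1 Control and 1 Dex array only, and its difference of -0.12 is a value near background (limma adjusted p = 0.925).

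Bcl2a1, the gene of A1, is read by 1 probe at chr8:94064699-94064758 on the plus strand, whose sequence is shown because this coding stretch is all that the array holds of the gene.
Bcl2a1: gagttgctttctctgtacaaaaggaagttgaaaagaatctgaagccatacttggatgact
It read 6.40, 5.50, 5.76 and 5.87 in Control and 6.08, 5.82, 4.82 and 4.49 in Dex. Dex 3 and Dex 4 lay below all Control arrays while Dex 1 and Dex 2 lay among them, and the difference of -0.58 (standard error 0.39, limma adjusted p = 0.682) did not pass. Replicates 1 and 2 gave a mean difference of -0.00 and replicates 3 and 4 one of -1.16, and without any 1 array the difference was -0.84 to -0.31.

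Bcl2l2, the gene of Bcl-w, showed the widest spread. Its coding probe read 6.20, 6.38, 7.02 and 6.61 in Control and 5.96, 5.98, 7.62 and 7.71 in Dex. Dex 1 and Dex 2 were the lowest of all arrays and Dex 3 and Dex 4 the highest, so that the mean difference of 0.26 (standard error 0.46, limma adjusted p = 0.890) describes none of them. The downstream probe read 6.75, 6.84, 6.70 and 6.77 in Control and 6.58, 6.48, 5.03 and 4.68 in Dex. All Dex arrays were lower here, Dex 3 and Dex 4 by far the most, with a difference of -1.07 (standard error 0.44, limma adjusted p = 0.438). In Dex 3 and Dex 4 the probes of this gene thus stood on opposite sides of Control.

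Since Dex 1 and Dex 2 were among the arrays with few probes above background, the fit was repeated without them and Control 1. In that fit of 3 Control and 2 Dex arrays, 4 of the 15 member probes passed, against 11.4% of all probes. They were the distal probe of Bcl2l1 at -1.20 (limma adjusted p = 0.0353), its second coding probe at -0.96 (adjusted p = 0.0444), Bcl2a1 at -1.06 (adjusted p = 0.0392) and the downstream probe of Bcl2l2 at -1.92 (adjusted p = 0.0322). The start codon probe of Bcl2l1 remained higher, at 0.30 (adjusted p = 0.554), and the coding probe of Bcl2l2 stood at 0.99 (adjusted p = 0.0523).

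**Figure D3:**
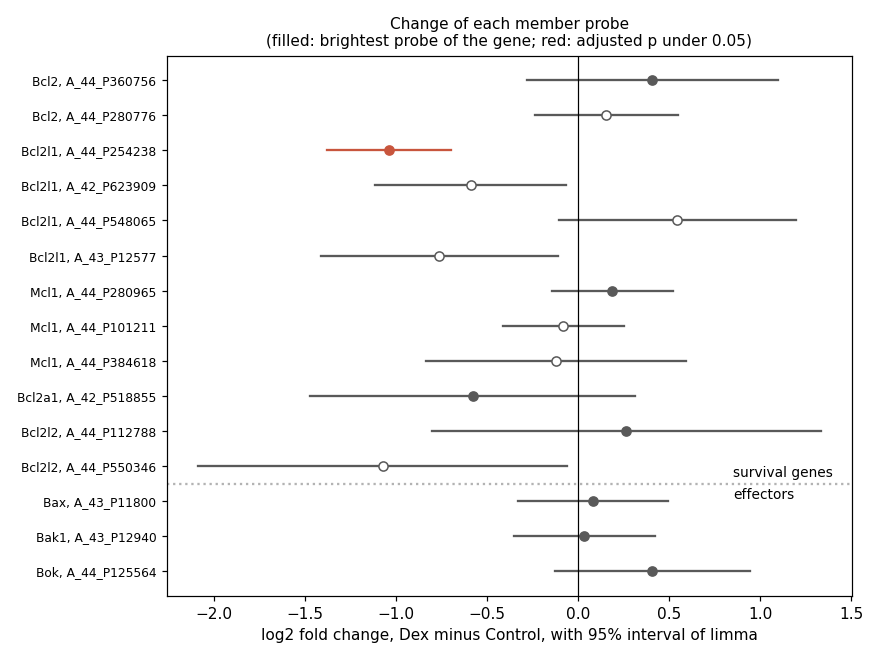
Log2 fold change, Dex minus Control, of all 15 member probes with the 95% interval of limma, filled for the brightest probe of a gene and red for an adjusted p under 0.05. The distal Bcl2l1 probe at -1.04 alone is red, and the 3 effectors below the dotted line lie between 0.03 and 0.41 with intervals that include 0.

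None of the effectors passed the test. Bax, the pore former that moves from the cytosol to mitochondria, read 10.29, 10.34, 10.05 and 10.20 in Control and 10.47, 10.58, 10.14 and 10.01 in Dex. Dex 1 and Dex 2 were above and Dex 4 below all Control arrays, and the difference was 0.08 (standard error 0.18, 95% interval -0.33 to 0.49, limma adjusted p = 0.911). Bak1, whose product resides at the mitochondrial membrane, read 11.60, 11.63, 11.34 and 11.45 in Control and 11.74, 11.70, 11.45 and 11.27 in Dex. Dex 1 and Dex 2 were again the highest and Dex 4 the lowest, with a difference of 0.03 (standard error 0.17, 95% interval -0.36 to 0.42, limma adjusted p = 0.966). The intervals of both genes allow a change of either sign, and their direction turned in other settings, to -0.12 for both without Control 1, Dex 1 and Dex 2.

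Bok, a BAX-type protein of less settled function, is represented by a probe at chr9:93175598-93175657, shown for its composition, with 73.3% of its bases G or C.
Bok: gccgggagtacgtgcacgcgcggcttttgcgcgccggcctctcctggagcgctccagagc
It read 4.62, 3.73, 4.32 and 4.57 in Control and 4.54, 4.94, 4.54 and 4.85 in Dex, well above background on all 8 arrays. Control 2 was the lowest, 2 Dex arrays lay above all Control arrays and the other 2 among them. The difference of 0.41 (standard error 0.23, limma adjusted p = 0.618) did not pass, and it was 0.21 without Control 2 and -0.082 with slide as a fixed block.

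Set side by side, the survival genes spread more widely in their changes than the effectors. Of the 5 survival genes 3 were higher and 2 lower in Dex, from -1.04 to 0.41, and all 3 effectors were higher, from 0.03 to 0.41, although each of the 3 was lower with slide as a fixed block. Bcl2l2 counts as higher by its coding probe, while its downstream probe, the brighter one in Control, differed by -1.07. These counts, and the medians, means and pairs below, thus depend on the choice of probe. The median difference was 0.19 for survival genes and 0.08 for effectors, with -0.00 for all gene names. The mean was -0.15 for survival genes and 0.17 for effectors, so that the survival genes stood above the effectors by the median and below them by the mean. The difference of the medians, 0.10, turned to -0.14 without Dex 3, -0.21 without Dex 4, -0.084 under scaling to the 75th percentile, -0.048 with slide as a random block and -0.49 with the mean over probes, so that it has no settled direction. Averaged on each array, survival minus effector signal ranged from 0.12 to 0.60 in Control and from -0.42 to 0.30 in Dex, and the groups overlapped. Between arrays of the same replicate number it differed by -0.22, -0.71, -0.36 and -0.018 for replicates 1 to 4, lower in Dex in 4 of 4. The survival mean includes Bcl2l1, which differed by -0.78, -1.01, -1.32 and -1.05 in these pairs. No other survival gene was lower in all 4 pairs by its brightest probe. Among the 15 pairs of a survival and an effector gene, the survival gene changed downward relative to the effector in 9 and upward in 6. The Dex arrays all lay below the Control arrays only for the 3 pairs with Bcl2l1, which changed by -1.12 relative to Bax, -1.07 relative to Bak1 and -1.45 relative to Bok. No test is given for these differences, since the members were chosen with earlier results known.

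The remainder of the pathway was examined through 49 further genes. In Dex 24 of them were higher and 25 lower, with a median of -0.04 against -0.00 for all gene names. Of the 49 genes 1 was called, against 0.751% of all gene names. It was Bcl2l11, the gene of Bim, which read 5.73, 5.10, 5.30 and 5.47 in Control and 7.11, 7.66, 6.85 and 7.05 in Dex. All Dex arrays were higher, with a rise of 1.77 (standard error 0.23, limma adjusted p = 0.0142). The call was lost with the replicate number as a block, with slide as a fixed block, and without Control 2, 3 or 4 or Dex 1. Of the 7 BH3-only genes 4 were higher and 3 lower. Besides Bcl2l11, the differences of Bmf at 1.41 (adjusted p = 0.0557), Bbc3 at 0.63 (adjusted p = 0.326) and Bid, whose product is cut by caspases, at -0.66 (adjusted p = 0.112) did not pass, although none of the 3 had overlapping groups. Groups without overlap were found for 9 of the 49 pathway genes, against 8.90% of all gene names. These 3 were picked out with their values in view.

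Downstream of the effectors, 9 of 10 listed genes of released proteins, the apoptosome, caspases and caspase inhibitors were lower in Dex, with a median of -0.33 and no call. The 1 higher was Casp9, the caspase that the apoptosome activates, at 0.56. The lower ones include the inhibitors Xiap at -0.42 (limma adjusted p = 0.808), Birc2 at -0.24 (adjusted p = 0.705) and Birc5 at -0.66 (adjusted p = 0.353). For Xiap, Dex 1 and Dex 2 lay above all Control arrays and Dex 3 and Dex 4 below them. Cycs, the gene of cytochrome c, averaged 12.57 ± 0.05 in Control against 12.06 ± 0.16 in Dex (SD, n = 4 each), without overlap, a difference of -0.51 (limma adjusted p = 0.227). The 11 mitochondrial partners, such as the Vdac channels and the fusion genes Mfn1, Mfn2 and Opa1, had a median of 0.02, with 7 higher and 4 lower. The 8 other BCL2 relatives had a median of 0.07, with 5 higher and 3 lower. Of the 13 regulators of member transcription or turnover, 7 were higher and 6 lower, and Nr3c1, the gene of the glucocorticoid receptor, was at 0.81 (limma adjusted p = 0.0951). Ets2, the gene of a transcription factor, differed most, by -1.15 without overlap (limma adjusted p = 0.111). No gene of these 4 groups passed the test.

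**Figure D4:**
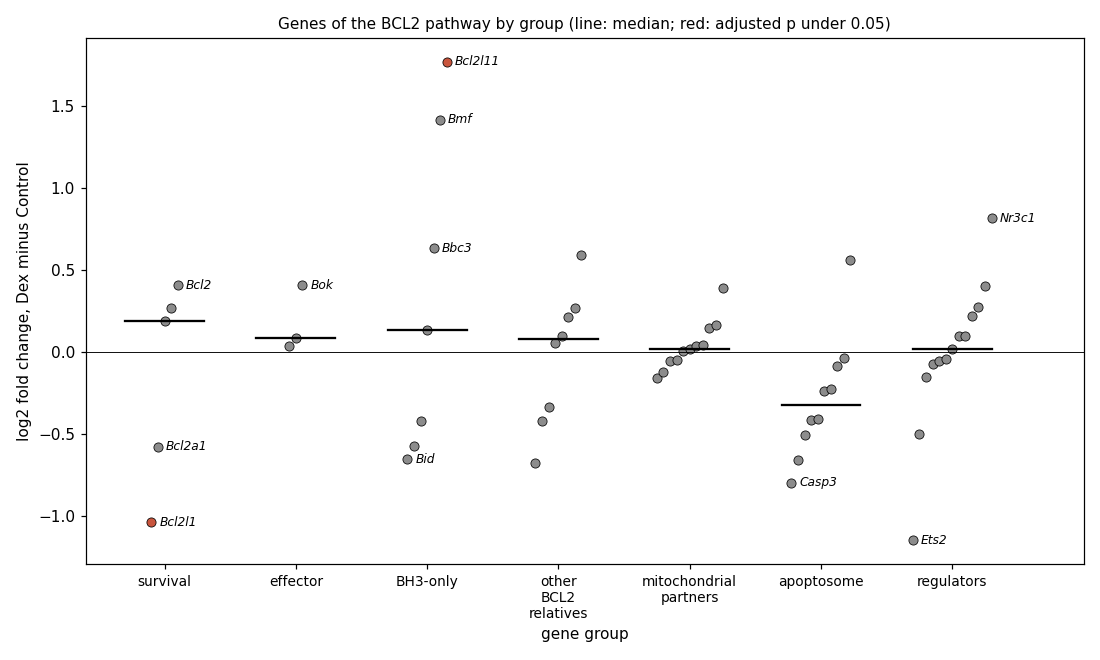
Log2 fold change, Dex minus Control, of the survival and effector genes and of 49 further genes of the BCL2 pathway, a point per gene by its brightest probe, with the median of each group as a line and called genes in red. Bcl2l1 at -1.04 and Bcl2l11 at 1.77 are the called genes, and 9 of the 10 genes of the group of released proteins, caspases and their inhibitors, labelled apoptosome, lie below 0.

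Genes whose signal ran most nearly parallel to a member over the 8 arrays were sought among 8076 named genes well above background on every array, by Pearson's r, as a description. The arrays share their normalization and fall into 2 groups, which by itself raises r for any gene that changed. Among the nearest to the distal Bcl2l1 probe were Cd200 and B3gnt1, both with r of 0.994 and with differences of -2.10 and -0.76. Nearest to Bcl2 were Boc, Hspb1 and Tmem38a, with r from 0.965 to 0.981. Mcl1 had Ankrd9, Fbxl14 and Snrk, with r from 0.953 to 0.969, and Bax had Snapc2, Pole3 and Eif2b1, with r from 0.986 to 0.989. None of the nearest genes of Bcl2, Mcl1 and Bax passed the test, and their differences ran from 0.08 to 0.63.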

How the data were processed

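RNA labeled with Cy3 was read on Agilent rat arrays of 1 color, and the authors took the intensity of each spot, less its background, from Feature Extraction version 9.5.3.1. The log2 table that the authors deposited holds quantile normalized values, 1 per probe by median polish. Both steps were recomputed here from the deposited intensities without the spots marked as outliers, so that 16 values are missing, and no spot was saturated. The deposited 0 or 1 flags, per the file headers a score of the software, gave the probes well above background.

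limma (version 3.58.1, R version 4.3.3) was fitted to all 41012 probes by lmFit and eBayes as a two-sided test with no block, and calls were made at a p of 0.05 adjusted by Benjamini-Hochberg across the whole array. On simulated data with 40996 probes it called 54 of 112 probes changed by 2 on the log2 scale, 12 of 88 changed by 1 and 4 of the unchanged ones. The simulated noise was independent for each probe, with the same spread on every array and no effect of slide or array. Its rates therefore need not hold for the real arrays. The signal to noise statistic was set against its values in every one of the 70 ways to divide the arrays, with all probes pooled, at a one-tailed p of 0.01 and a fold change of 1.2. The methods name this statistic with random permutations, so its use here follows them in part. The number of arrays limits the precision.

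Named genes were all member probes, called pathway genes, Bcl2l11, Tsc22d3, Fkbp5 and the 3 nearest genes of Bcl2l1, Bcl2, Mcl1 and Bax, of which 1 is not reported here. Bmf, Bbc3, Bid, Cycs, Casp9, Xiap, Birc2, Birc5, Nr3c1 and Ets2 were added with their values in view. So were the markers Pecam1, Vwf, Col1a2, Mrc1, C1qc, Cd14, Cd163, Adgre1, Cd68, Cd8b, Rag1, Ptcra, Lck and Cd5. Of the pathway genes 4 were named through their RefSeq accession where the array uses an older symbol. Members and lists were chosen with earlier results of these data known.

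Deviations from the group means correlated between arrays of the same replicate number at 0.40, 0.13, 0.55 and 0.18. All exceed 0.1, the limit used here to compare arrays by the labels' numbers, but unlike numbers correlated at up to 0.40. Dex 2 was as close to Control 1 (0.40) as Dex 1 was, and Control 2 was closer to Dex 1 (0.19) than to Dex 2. For Control 3 and Control 4 the like number gave the highest value. The correlations therefore do not settle whether the cultures were paired, nor whether the fit with or without the replicate block is the apt one. Differences between arrays of the same number are descriptive. Alternatives were scaling to the 75th percentile, normexp (offset 50), the deposited table, dim probes left out, replicate and slide blocks, array weights, the mean over probes and arrays left out.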

Additional observations from a re-analysis of the deposited data

Results flagged for a closer look

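The brightest probe of Mcl1 read 12.10 on Dex 4, above the other Dex arrays at 11.86 to 11.90. Its distance from the next array made up 0.841 of the whole range of the 4 Dex arrays, past the 95% limit of Dixon's test for 4 samples. Of 30 groups of arrays tested, this was the 1 found, where chance would give about 1 in 20.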

How the results depend on the processing

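The fall of Bcl2l1 kept its direction in all 19 alternatives and passed in 7. These 7 come from the same arrays and are no independent support. They were normexp, the deposited table, dim probes left out, array weights, slide as a random block, the fit without Control 1, Dex 1 and Dex 2, and a block chosen after seeing the data. The random block had a negative correlation within slides, -0.24. The change of Bcl2l1 was -1.02 under scaling to the 75th percentile (limma adjusted p = 0.303), -1.04 with the replicate number as a block (limma adjusted p = 0.148), -1.09 with slide as a fixed block, which leaves Control 1 and Dex 3 (limma adjusted p = 0.771), and -0.46 as the mean over its probes (limma adjusted p = 0.556). Without any 1 array it was -1.09 to -0.97. The count of 1 called member gene became 0 under these 4 settings and in each fit without 1 array, and 2 without Control 1, Dex 1 and Dex 2, where Bcl2a1 reached -1.06. The median survival minus effector difference of 0.10 became -0.49 with the mean over probes, against a spread of 0.43 between arrays. It was -0.084 under scaling to the 75th percentile, -0.048 with slide as a random block, 0.41 with slide as a fixed block and -0.21 to 0.22 without any 1 array, negative without Dex 3 or Dex 4. The pathway count of 1 became 5 with normexp, 4 with dim probes left out, 0 with the replicate block and with slide as a fixed block, 6 with slide as a random block, 8 without Control 1, Dex 1 and Dex 2, 3 with a block for replicates 1 and 2 against the others, a fit chosen after seeing the data, and 0 to 2 without any 1 array. No call of a member other than Bcl2l1 changed with the replicate block. Directions turned for genes whose brightest probe passed in none of these fits. With slide as a fixed block Bax and Bak1 were at -0.15 and Bok at -0.082, and without Control 1, Dex 1 and Dex 2 both Bax and Bak1 were at -0.12. With the mean over probes Mcl1 was at -0.0057 (0.052 without its probe on chromosome 3) and Bcl2l2 at -0.40. Without any 1 array Bax ranged from -0.011 to 0.18, Bak1 from -0.034 to 0.12 and Bcl2l2 from -0.033 to 0.55. The 319 called probes of the array numbered 4671 without Control 1, Dex 1 and Dex 2, 1838 with slide as a random block, 915 with normexp, 562 with dim probes left out, 166 with scaling to the 75th percentile, 96 to 249 without any 1 array, 81 with the replicate block and 1 with slide as a fixed block. The cause of these changes was not tested.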
